A study of Mus musculus with 2 samples.

Results

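The transcripts of the imprinted Dlk1-Meg3 cluster were described from long-read RNA sequencing of mouse adrenal gland. The members were the 5 annotated genes Dlk1, Meg3, Rian, Mirg and Dio3, chosen by name, with every transcript model that the deposited tables assign to them. They held 88 of 125539 transcript models in replicate 1 and 46 of 65191 in replicate 2, and were 5 genes beside 16910 annotated nuclear genes with at least 1 read. Each library was made from adrenal total RNA of female mice of the F1 cross B6CASTF1/J at 2 months of age, with no treatment given in the labels. The labels name them biological replicates 1 and 2 of 1 group, so there was no second condition, and they leave unclear whether the glands came from separate animals: the biosamples are numbered 3 and 4, while the library labels share a number and the donor identifier is the same. Any p-value below is therefore about how these particular libraries differ, for which the source may be technical.

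In the mouse each imprinted gene of this cluster is expressed from 1 parental allele, and which one differs between the genes. Dlk1 and Dio3, which encode proteins, and Rtl1 are expressed from the chromosome inherited from the father, and the long noncoding RNAs Meg3, Rian and Mirg from that of the mother. Dlk1 is a transmembrane protein with EGF-like repeats, related to the Notch ligands, that can be shed from the cell surface as a soluble protein. Rian and Mirg host clusters of small nucleolar RNAs and microRNAs, and Dio3 is the deiodinase that inactivates thyroid hormone. The deposited tables do not split reads by parental allele, so imprinting itself was not measured here.

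The members lie on the plus strand of chromosome 12 of mouse build mm10. Dlk1 spans chr12:109452823-109463336, Meg3 chr12:109541001-109571726, Rian chr12:109603940-109661716, Mirg chr12:109729764-109749460 and Dio3 chr12:110279068-110281097. The annotation (GENCODE M21) lists 10 transcripts of Dlk1, 11 of Meg3, 20 of Rian, 12 of Mirg and 2 of Dio3.

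The sequences that the splice forms below turn on are shown first, 5′ to 3′, from the annotated M21 transcripts. The stretch of the last coding exon of Dlk1 that optional introns remove is chr12:109459833-109460117, plus strand, 285 bases, all of it coding. Its capitals mark the GT at both intron starts that annotated transcripts use and the AG at their 4 intron ends.
Dlk1 last coding exon: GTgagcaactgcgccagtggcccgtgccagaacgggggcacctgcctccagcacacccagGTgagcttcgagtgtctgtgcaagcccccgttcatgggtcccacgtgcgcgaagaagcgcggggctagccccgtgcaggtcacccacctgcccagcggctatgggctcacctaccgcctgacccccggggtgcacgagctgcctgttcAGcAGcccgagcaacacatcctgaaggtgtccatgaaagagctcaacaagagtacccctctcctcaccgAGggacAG
Exon 2 of Meg3 has an upstream and a downstream end 44 bases apart. The stretch chr12:109543796-109543849 holds both, with the 2 bases after the upstream end in capitals.
Meg3 exon 2, last part: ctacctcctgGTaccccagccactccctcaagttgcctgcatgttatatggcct
Exon 3 of Meg3 either ends or is read through. The 30 bases chr12:109544728-109544757 span that boundary, with the 2 bases after the end of exon 3 in capitals.
Meg3 end of exon 3: ctctccttgcgccagGTaggggctctttag
The optional exons of Meg3 are exon 4 (chr12:109544948-109545041, 94 bases), exon 5 (chr12:109546430-109546542, 113 bases) and exon 6 (chr12:109549291-109549371, 81 bases).
Meg3 exon 4: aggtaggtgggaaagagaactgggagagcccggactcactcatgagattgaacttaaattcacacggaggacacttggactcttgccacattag
Meg3 exon 5: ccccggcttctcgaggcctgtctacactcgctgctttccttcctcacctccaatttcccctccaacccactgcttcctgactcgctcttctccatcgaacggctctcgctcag
Meg3 exon 6: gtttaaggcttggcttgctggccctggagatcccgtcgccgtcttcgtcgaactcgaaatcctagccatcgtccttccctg

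Dlk1 and Meg3 were read at least 109 times in each library, and the other 3 members were at or near 0. Levels are given as CPM, the reads of a gene per 1000000 reads of annotated nuclear genes, of which there were 1209457 in replicate 1 and 502655 in replicate 2. A long read comes from 1 molecule, so levels were not divided by length. The detection floor was set at 3 reads, which is 2.48 CPM in replicate 1 and 5.97 CPM in the shallower replicate 2.

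Dlk1 had 390 reads in replicate 1 and 228 in replicate 2, or 322.5 and 453.6 CPM (mean 388.0 ± 92.7 CPM, SD, n = 2), and ranked 373rd by mean CPM. Meg3 had 281 and 109 reads, or 232.3 and 216.8 CPM (224.6 ± 10.95 CPM, SD, n = 2), and ranked 814th. Dlk1 was above Meg3 in both libraries, and their ranges did not overlap. Rian had 3 reads in replicate 1 and 1 in replicate 2, at the floor in the first and under it in the second. Mirg had 2 reads and 0 reads, and Dio3 none in either library. The order among Rian, Mirg and Dio3 cannot be told at this depth, since with no read a level up to the floor (2.48 and 5.97 CPM) remains possible; these floors and all intervals here cover counting error only. In a whole gland, fewer cells that express a gene and less RNA per cell cannot be told apart.

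**Figure D1:**
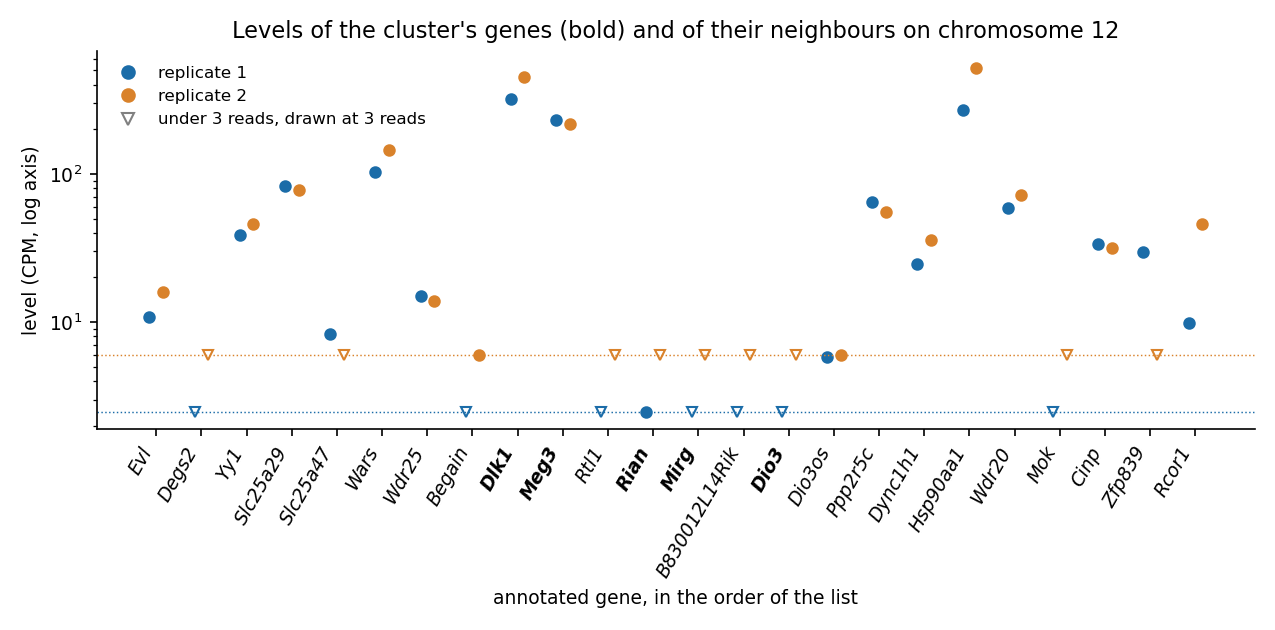
Level (CPM, log axis) of 24 genes listed along chromosome 12, with 1 point per library; open triangles are genes under 3 reads, drawn at the level of 3 reads (dotted lines). Dlk1 and Meg3 stand at 217 to 454 CPM, while Rtl1, Mirg and Dio3 are under the floor in both libraries.

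Of the 2 members with enough reads to test (at least 10 over both libraries), 0 were called different between the libraries, where 9.55% of 10170 genes tested were called. A call needed an adjusted p under 0.05 by Fisher's exact test (two-sided, Benjamini-Hochberg) and at least a 2-fold difference. Dlk1 was higher in replicate 2 by 0.49 on the log2 scale (SE 0.12), with an adjusted p of 7.4e-04 by Fisher's exact test, and missed the fold limit. Meg3 differed by -0.10 (SE 0.16) with an adjusted p of 0.804 by the same exact test. At an unadjusted p under 0.05 and any fold, 1 of the 2 members, Dlk1, passed. The median log2 ratio of all genes tested was -0.06.

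Marker genes of the gland's cell types differed unevenly between the libraries, beside the 9.55% of all genes tested that were called. The 10 chromaffin genes listed summed to 12991 CPM in replicate 1 against 7970 in replicate 2, with 3 of 10 called lower, among them Chgb, a secretory granule protein, at 5350 and 2344 CPM. The 8 zona glomerulosa genes summed to 2692 and 5135 CPM, with 4 of 6 tested called higher. Most of that rise was in Kcnk3, a potassium channel, at 1122 and 3561 CPM. The other two tested were lower in replicate 2 within the fold limit: Cyp11b2, the aldosterone synthase, was at 1086 and 844 CPM (adjusted p 7.9e-05 by Fisher's exact test), and Wnt4, a secreted signal, at 367.1 and 274.5 CPM (adjusted p 0.0190 by the same exact test). The 12 capsule and fibroblast genes summed to 658.1 and 483.4 CPM, with 2 of 10 tested called lower. The 7 genes of steroidogenic cortex, the defining cells of the tissue, were all detected, summed to 52861 and 68013 CPM, and had 1 of 7 called, Cyp21a1, a steroid hydroxylase, at 14022 and 28073 CPM. Of the 8 adipocyte genes, which summed to 8749 and 9510 CPM, 0 were called by Fisher's exact test, and 6 had an unadjusted p under 0.05 by that test. The 7 endothelial genes summed to 561.4 and 781.8 CPM, with 1 of 6 tested called higher, and 0 of 5 kidney genes were detected. The part of cell composition in the Dlk1 difference was not tested.

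The genes around the cluster were read unevenly. Of 24 genes listed along chromosome 12, the members included, 14 had at least 3 reads in both libraries. Of 16 tested, 2 were called (Rcor1 higher and Zfp839 lower in replicate 2), beside 9.55% of all genes tested. Hsp90aa1, the inducible cytosolic chaperone, averaged 394.0 ± 177 CPM (SD, n = 2), beside Dlk1 the highest of the list. Rtl1, the retrotransposon-derived imprinted gene between Meg3 and Rian, had 0 reads in both libraries. Dio3os, the noncoding RNA that starts beside Dio3 on the opposite strand, had 7 and 3 reads (5.79 and 5.97 CPM), while Dio3 itself had none.

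The counts called in the next lists stand beside 9.55% of 10170 genes tested, of which 606 were higher and 365 lower in replicate 2. Other imprinted genes, a list of 32, had 18 detected and 2 of 18 tested called, Mest and Peg13, both higher in replicate 2. The highest were Cd81 at 1756 ± 122, Gnas at 1706 ± 297 and Cdkn1c at 1587 ± 39.6 CPM (SD, n = 2), all above Dlk1. In the Notch pathway, to which Dlk1 is related, 16 of 32 genes were detected and 3 of 17 tested were called, all higher in replicate 2. Among them was Rfng, which adds sugars to Notch, with 4 reads in replicate 1 and 17 in replicate 2. Among 18 genes that handle thyroid hormone, the pathway of Dio3, 14 were detected and 4 of 15 tested were called, with the transporters Slc16a10, Slc7a5 and Slc7a8 higher and the corepressor Ncor1 lower in replicate 2. Of 10 genes of the machinery that makes microRNAs, 7 were detected and 0 of 8 tested were called by Fisher's exact test (1, Dicer1, at an unadjusted p under 0.05). The Polycomb repressive complex 2 list, whose complex has been studied as a partner of Meg3, had 10 of 11 genes detected and 4 of 10 tested called, 2 in each direction.

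The reads of Dlk1 and Meg3 fell into different classes of transcript model. Dlk1 matched annotated transcripts in 87.2% of its reads in replicate 1 (340 of 390, 95% exact Clopper-Pearson interval 83.4 to 90.3%) and 93.9% in replicate 2 (214 of 228, 89.9 to 96.6%). Meg3 did so in 17.8% (50 of 281, 13.5 to 22.8%) and 22.9% (25 of 109, 15.4 to 32.0%). Over all annotated nuclear genes the share was 76.5% and 81.8%. Of 2098 genes read 50 times or more in both libraries, 60 had a lower mean share of annotated reads than Meg3, and 1316 had a lower share than Dlk1.

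Models that join annotated splice sites in a new way, called new in catalog, took 22.1% of Meg3 reads in replicate 1 and 46.8% in replicate 2. Incomplete splice matches, which hold only part of an annotated chain of introns, took 42.3% and 25.7%. Genomic models, which follow no annotated chain, took 13.5% (38 of 281 reads) and 0.917% (1 of 109). Across all genes, incomplete matches were also more frequent in replicate 1 (11.6% against 7.08%), as were genomic models (4.66% against 2.46%). The genes closest to Meg3 in the make-up of classes were Hgs, Rap1gap and Cars2, 12.8 to 16.2 percentage points away (Euclidean distance between the 5 class shares averaged over the 2 libraries). For Dlk1 they were Idh1, Ppm1a and Ppp3ca, 0.577 to 1.19 points away.

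**Figure D2:**
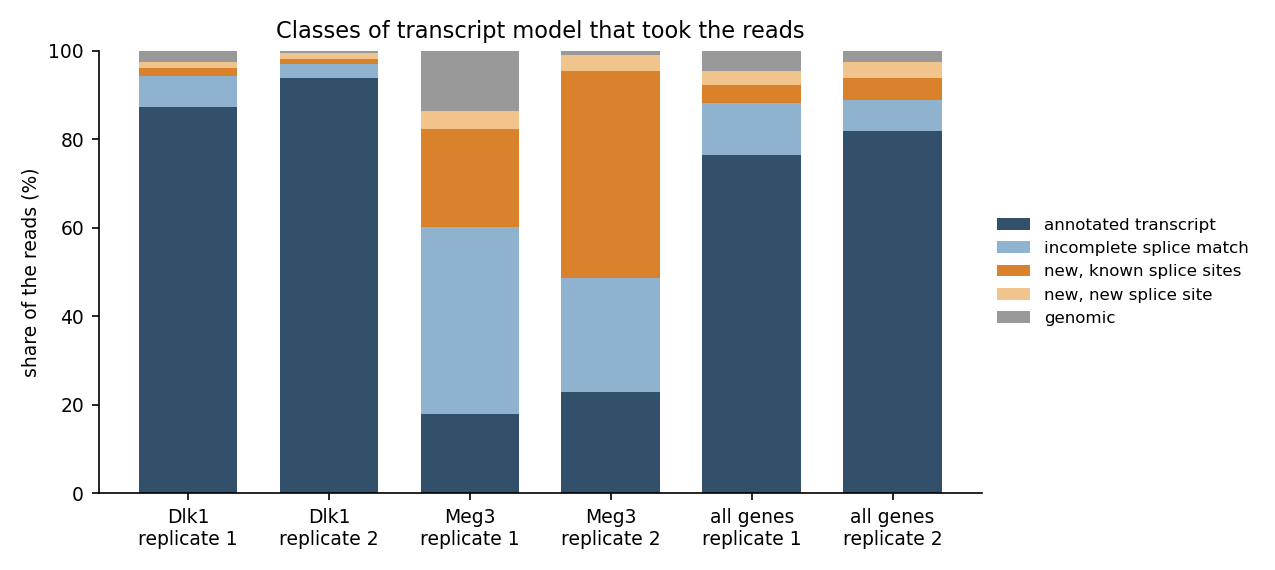
Share of reads (%) in the 5 classes of transcript model for Dlk1, Meg3 and all annotated nuclear genes, with 1 bar per library. Annotated transcripts take 87.2% and 93.9% of Dlk1 reads but 17.8% and 22.9% of Meg3 reads.

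For Dlk1, the transcript that led was Dlk1-205, a 5-exon form with an uninterrupted last exon (chr12:109459607-109460700). It took 232 of 352 spliced reads in replicate 1 (65.9%, 60.7 to 70.9%) and 162 of 220 in replicate 2 (73.6%, 67.3 to 79.3%), where spliced reads are those of annotated and new spliced models. The difference had an adjusted p of 0.670 by Fisher's exact test and was not called, against 0.858% of 2097 genes called for the share of their main transcript. The median of that share over those genes was 92.2%, and 395 of them had a lower share than Dlk1. With all reads of the gene as the denominator, 232 of 390 and 162 of 228, the difference had an adjusted p of 0.0242 by Fisher's exact test. It was then called, which needs an adjusted p under 0.05 and at least 10 percentage points. The share of all genes called with this denominator was not counted, and the 0.858% is for spliced reads. This denominator adds incomplete and genomic models. Across all genes both were more frequent in replicate 1 (11.6% against 7.08%, and 4.66% against 2.46%). Their part in the call was not tested.

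The rest of Dlk1 was mostly the same transcript with an intron taken out of the coding part of its last exon, within the stretch printed above. Dlk1-208, which lacks chr12:109459893-109460117, had 73 and 40 reads. Dlk1-203, which lacks chr12:109459893-109460111, had 19 and 6 reads, and Dlk1-206, which lacks chr12:109459893-109460045, had 8 and 3. These 3 introns start at the same GT, the second pair of capitals in the sequence, and end at different AGs.

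Counted over all models that hold the intron before the last coding exon and reach past the optional introns, 246 of 357 reads in replicate 1 had that exon unspliced (68.9%, 63.8 to 73.7%). In replicate 2 it was 164 of 219 (74.9%, 68.6 to 80.5%), so the intervals overlapped. An optional intron was removed in the other 111 reads of replicate 1 (31.1%) and 55 of replicate 2 (25.1%). The start at 109459893 was used by 108 of these 111 reads and by 55 of 55, and the upstream start at 109459833, as in Dlk1-204, by 3 reads and 0. The intron of 225 bases led with 75 and 41 reads, followed by that of 219 bases with 22 and 7 and that of 153 bases with 9 and 3.

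Every optional intron seen in these reads had a length that is a multiple of 3, so that each keeps the reading frame. The 225-base intron takes out 75 codons from codon 231 on, the 219-base intron 73 and the 153-base intron 51, of the 385 residues of Dlk1-205. The protein is left with 310, 312 and 334 residues in Dlk1-208, Dlk1-203 and Dlk1-206. An annotated 150-base intron (chr12:109459893-109460042) removes 50 codons and was in 2 reads of each library. In replicate 2, 2 further ends outside the annotation were in 1 read each, with introns of 174 and 372 bases. As background, splicing of this exon is known to separate Dlk1 forms that keep the juxtamembrane stretch where the protein is cut from forms that lack it.

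The start of Dlk1 varied less. The exon at the proximal start (in Dlk1-205, chr12:109453455-109453726) was in 339 of 352 reads that show the first exon in replicate 1 (96.3%, 93.8 to 98.0%) and in 215 of 220 in replicate 2 (97.7%, 94.8 to 99.3%). An upstream exon, chr12:109452849-109453294, was in 10 and 2 reads, and a start at 109454195, as in Dlk1-207, in 3 and 3. The reads that show the first exon were 90.3% of all Dlk1 reads in replicate 1 and 96.5% in replicate 2. The end of the transcripts was not compared, because annotated models carry the annotated end and not that of the read.

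**Figure D3:**
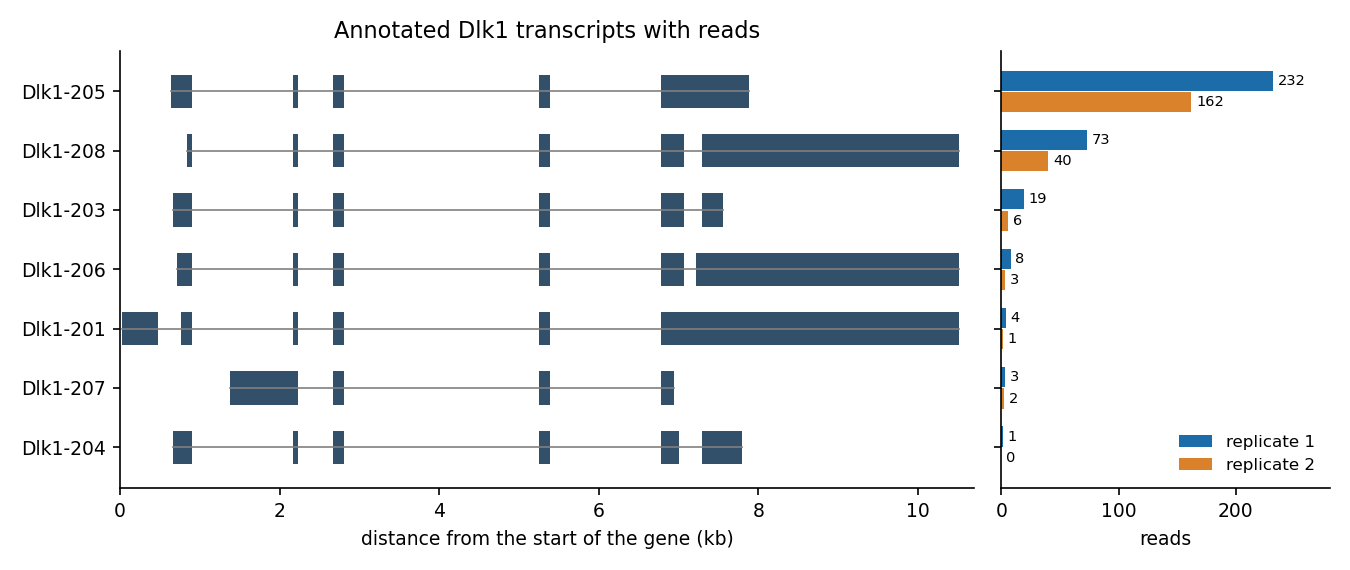
Exons of the 7 annotated Dlk1 transcripts with reads, to scale in kb from the start of the gene (left), and their reads in each library (right). Dlk1-205, with its last exon unbroken, has 232 and 162 reads; Dlk1-208, Dlk1-203 and Dlk1-206 lack part of that exon.

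New spliced models of Dlk1 numbered 13 over both libraries, of which 10 had a single read, and none had 3 reads in both. Of 11 annotated introns of the gene, 10 had reads and 7 had at least 3 in both libraries. The 8 introns outside the annotation had at most 1 read in a library. Unspliced models held 6.41% of Dlk1 reads in replicate 1 (25 of 390) and 2.19% in replicate 2 (5 of 228), against 9.98% and 6.26% over all annotated nuclear genes.

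For Meg3, 2 of its 11 annotated transcripts had reads that matched them in full. Incomplete matches, 42.3% of its reads in replicate 1 and 25.7% in replicate 2, follow part of an annotated chain and are not counted there. Meg3-205, a short form of 3 exons, had 41 and 12 reads. It took 33.1% of spliced reads in replicate 1 (41 of 124, 24.9 to 42.1%) and 15.0% in replicate 2 (12 of 80, 8.00 to 24.7%). This difference of -18.1 percentage points had an adjusted p of 0.238 by Fisher's exact test and was not called. Of 2097 genes, 16 had a lower share for their main transcript than Meg3. These spliced reads leave out the incomplete matches, and of all reads of the gene Meg3-205 averaged 12.8%. Meg3-207, the 10-exon form that gives the exon numbers used here, had 9 and 13 reads.

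In the short form, exon 3 is not cut at its boundary but runs on to chr12:109545319. Among reads that start with the junction from exon 1, it made up 90 of 161 short or long reads in replicate 1 (55.9%, 47.9 to 63.7%) and 31 of 96 in replicate 2 (32.3%, 23.1 to 42.6%), where long reads are those spliced at the end of exon 3. The intervals did not overlap, and the short form led in replicate 1 only. The most frequent model of the gene was of this kind: a 3-exon chain with the longer exon 2, filed as an incomplete match, with 48 and 18 reads. Counted over every read that covers the end of exon 3, whatever its start, 99 of 222 ran through it in replicate 1 (44.6%, 37.9 to 51.4%) and 32 of 103 in replicate 2 (31.1%, 22.3 to 40.9%), and these intervals overlapped.

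The libraries also differed in how much of Meg3 a read held. The junction from exon 1 was in 164 of 281 reads in replicate 1 (58.4%) and 96 of 109 in replicate 2 (88.1%). Spliced models that start at 109544498, inside exon 3, held 59 reads (21%) and 6 (5.50%), and unspliced models of any place 45 (16.0%) and 6 (5.50%). The part of these differences in the share of the short form was not tested.

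The last 50 bases of both forms are shown to compare their ends, with the polyadenylation motif AATAAA in capitals where it was found on the transcript's strand. They are chr12:109545270-109545319 and chr12:109571672-109571721.
Meg3-205, end: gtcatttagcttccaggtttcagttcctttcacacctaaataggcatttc
Meg3-207, end: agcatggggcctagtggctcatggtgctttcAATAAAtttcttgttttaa
The motif lies in the long form, starting 19 bases from its end, and these letters are not in the window of the short form. Of 9100 annotated lincRNA transcripts of at least this length, 30.6% hold AATAAA in their last 50 bases. These are annotated ends and not those of the reads.

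Both ends of exon 2 of Meg3 were in common use. The downstream end, which keeps the 44 bases, was in 86 of 161 reads in replicate 1 (53.4%, 45.4 to 61.3%) and 60 of 97 in replicate 2 (61.9%, 51.4 to 71.5%). The upstream end was in 75 and 36 reads. Within the short form the downstream end was in 48 of 89 and 18 of 30 reads, and within the long form in 36 of 70 and 41 of 65.

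In reads of Meg3 that were spliced from exon 3 through to exon 7, exons 4 and 5 were optional, and exon 6 was nearly always held. Among such reads with no other exon in between, exon 4 was in 56 of 118 in replicate 1 (47.5%, 38.2 to 56.9%) and 35 of 69 in replicate 2 (50.7%, 38.4 to 63.0%). Exon 5 was in 70 of 118 (59.3%, 49.9 to 68.3%) and 41 of 69 (59.4%, 46.9 to 71.1%). Exon 6 was in 112 of 118 (94.9%, 89.3 to 98.1%) and 66 of 69 (95.7%, 87.8 to 99.1%). The shares of each exon differed between the libraries by less than their counting intervals.

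Because each long read comes from 1 molecule, the choices could be read together. The counts do not tell whether some reads are copies of the same molecule. Exon 5 was in 33 of 56 reads with exon 4 and 37 of 62 without it in replicate 1 (58.9% and 59.7%). In replicate 2 it was in 24 of 35 (68.6%) and 17 of 34 (50%), with intervals that overlapped. The end of exon 2 and exons 4, 5 and 6 make 16 possible combinations. In reads from the exon 1 junction to exon 7, 11 were seen in each library, and 9 in both. All 8 combinations that hold exon 6 had at least 3 reads in both libraries, and none of the other 8 did.

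**Figure D4:**
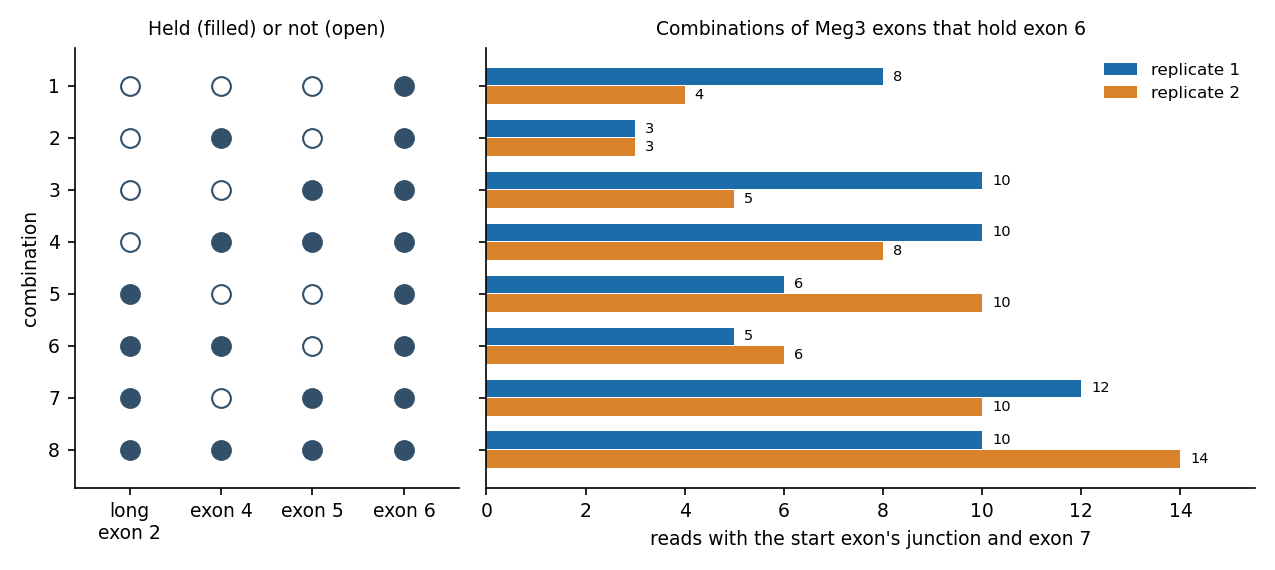
The 8 combinations of Meg3 exons that hold exon 6 (left; filled, exon held or exon 2 in its longer form; open, not) and their reads in each library (right; bars start at 0). Each has 3 to 14 reads per library, out of 69 and 63.

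Of those 8 combinations, the annotation has 1 from exon 1 on: the longer exon 2 with exons 4, 5 and 6, as in Meg3-207, which led in replicate 2 with 14 of 63 reads and had 10 of 69 in replicate 1. Meg3-201, which is annotated with the upstream end of exon 2 and exons 4 and 5 but not 6, had 0 reads that matched it in full. The 6 new spliced models of Meg3 with at least 3 reads in both libraries were all new in catalog and ran from exon 1 to the distal last exon. They held 48 of the 74 reads of new spliced models in replicate 1 and 41 of 55 in replicate 2. The most frequent of them lacks only exon 4 (12 and 9 reads), and the next has the upstream end of exon 2 with exons 4, 5 and 6 (10 and 8 reads). In all, 38 new spliced models of Meg3 were listed, 26 of them with 1 read.

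Of the 15 annotated introns of Meg3, 14 had reads and 12 had at least 3 in both libraries. Outside the annotation, 2 of 24 introns did, and both skip exon 5. The intron from exon 3 to exon 6 (chr12:109544743-109549290) was in 25 and 15 reads, and that from exon 4 to exon 6 (chr12:109545042-109549290) in 20 and 10. Each joins splice sites that the annotation uses in other introns.

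The distal last exon of Meg3 (chr12:109571391-109571721) followed exon 9 in 131 of 144 reads in replicate 1 (91.0%, 85.1 to 95.1%) and 65 of 70 in replicate 2 (92.9%, 84.1 to 97.6%). The proximal last exon, chr12:109558640-109559189 in Meg3-201, followed it in 12 and 4 reads. Unspliced reads at the distal end were 19 of 281 Meg3 reads in replicate 1 (6.76%, 4.12 to 10.4%). In replicate 2 they were 5 of 109 (4.59%, 1.51 to 10.4%), so the intervals overlapped. They were filed under different models. The genomic model chr12:109569429-109571723 held the 19 reads of replicate 1 and 0 of replicate 2. An incomplete match, chr12:109571391-109571722, held the 5 reads of replicate 2 and 0 of replicate 1.

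**Figure D5:**
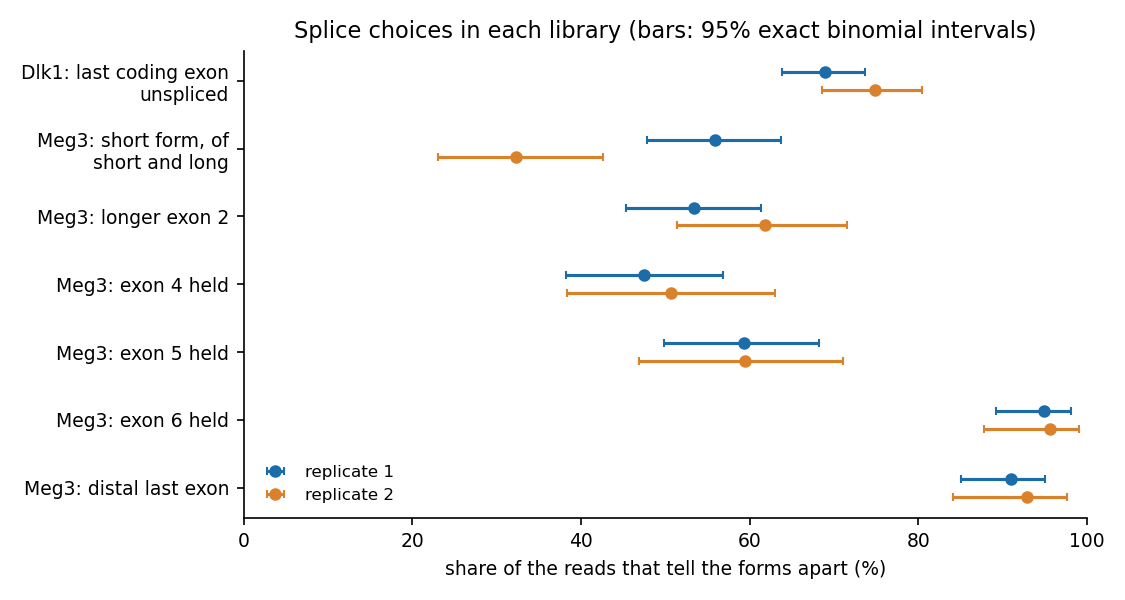
Share (%) of reads with each splice choice of Dlk1 and Meg3, with 1 point per library and 95% exact binomial intervals, over the reads that show the choice. The intervals of the libraries overlap for every choice plotted except the short form of Meg3, at 55.9% and 32.3%.

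Small RNA genes that lie within Meg3 on its strand took reads of their own. Mir1906-1 (chr12:109544541-109544620), which lies inside exon 3, had 65 reads in replicate 1 (53.7 CPM) and 2 in replicate 2 (3.98 CPM). Mir770 (chr12:109563692-109563785), in the intron after exon 9, had 2 and 1, and Gm27300 in exon 3 had 5 and 0. Together they held 20.4% of the reads of Meg3 and these genes in replicate 1 (72 of 353, 16.3 to 25%) and 2.68% in replicate 2 (3 of 112, 0.556 to 7.63%). With them, Meg3 was at 291.9 and 222.8 CPM, and its log2 ratio went from -0.10 to -0.39 (adjusted p 0.0648 by Fisher's exact test). A read that overlaps both genes could have been given to either, so these reads are uncertain and are no measure of mature microRNA.

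The mature microRNAs of these genes are shown to identify them, from RefSeq (GRCm38.p6), with the seed, bases 2 to 8, in capitals. They lie at chr12:109544588-109544609, chr12:109563710-109563731 and chr12:109563744-109563765, plus strand, and no seed is shared.
mmu-miR-1906: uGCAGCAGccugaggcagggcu
mmu-miR-770-5p: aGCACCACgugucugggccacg
mmu-miR-770-3p: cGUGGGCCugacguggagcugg
Of 67 annotated microRNA genes between the start of Dlk1 and the end of Dio3, these 2 had reads, and 0 of 23 small nucleolar RNA genes there did. Few microRNA genes were read anywhere: of 2207 annotated, 82 had reads in replicate 1 and 47 in replicate 2.

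Rian and Mirg were seen as single reads. In replicate 1, Rian had an 8-exon model from 109615688 to 109642652, an incomplete match of 3 exons and an unspliced read near its start, with 1 read each. In replicate 2 it had 1 unspliced read at its far end, chr12:109661627-109661716. Of 34 annotated introns of Rian, 6 had a read. Mirg had 1 read each of Mirg-207, with 2 exons, and Mirg-210, unspliced, both at its far end and both in replicate 1. These counts allow no statement on their splice forms.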

How the data were processed

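Long-read RNA-seq was measured in 2 libraries of mouse adrenal gland. Per the deposited readme files, the authors deposited counts of whole reads per transcript model, not normalised, from a filtered alignment on mm10 with GENCODE M21. New models carry the source TALON per the deposited files; no source used here names the aligner or the versions. Ends of annotated models are the annotated ones, so read ends were not used. Rows of each member were taken by gene name in all classes; models were matched between libraries by their introns. Genes and main transcripts were compared with two-sided Fisher's exact tests and Benjamini-Hochberg adjustment over all genes tested (scipy 1.17.1), with 0.5 added reads in log2 ratios. TMM (edgeR 4.0.16) and median-of-ratios (DESeq2 1.42.0) scaling were alternatives. These tests compare libraries, not conditions. Depth was 1209457 and 502655 reads of annotated nuclear genes. Members and lists were chosen with earlier results of these data known. Of other genes, the 3 highest of a list, those called, and the 3 nearest in class make-up were named; splice models and introns were named from at least 3 reads in both libraries, and rarer ones, Rtl1 and Dio3os were picked once the values were known. Values of 1 listed gene are not reported here. The code was tested on simulated data.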

Additional observations from a re-analysis of the deposited data

How the results depend on the processing

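Of 101 alternative values for 18 results, 85 were labelled the same, 13 moved and 3 reversed. For log2 ratios the label rests on direction and side of the threshold. For levels and shares it rests on a mean within the SD of the 2 libraries, not on a p-value, and for counts on their size. Leaving out 1 of 2 libraries could only be labelled the same, because each lies within the SD of their mean. Dio3, at 0 in every setting, could not move either. The mean of Meg3 was 45.5 CPM with annotated transcripts alone, 207.9 without genomic models, 147.5 without incomplete matches, and 257.3 with the small RNA genes inside it, an alternative chosen after seeing the data. Rian was at 0, 0.827 and 1.82 CPM under the first 3 of these. The log2 ratio of Meg3 was not called under any alternative, and turned to 0.28 with annotated transcripts alone (adjusted p 0.682), 0.10 without genomic models (0.775) and 0.27 without incomplete matches (0.401), by Fisher's exact test. Dlk1 ranged from 0.49 to 0.60 and stayed under the 2-fold limit in the 8 alternatives run for it. Genes called were 1823 with no minimum fold against 971, and Dlk1 passes once that limit is dropped (adjusted p 7.4e-04, Fisher's exact test). With annotated transcripts alone as the denominator, the share of Meg3-205 was 65.0%, as was that of the short form. With all reads of the gene as the denominator, the difference in the share of Dlk1-205 was called (adjusted p 0.0242, Fisher's exact test), unlike in the main setting. How many of all genes are called with that denominator was not counted. Reads from the exon 1 junction alone gave exon 5 at 61.5% and exon 6 at 94.0%; these alternatives for the forms were chosen after seeing the data. Shared new models numbered 12 at 1 read in both libraries. Leaving out a library gave Dlk1 at 322.5 to 453.6, Meg3 at 216.8 to 232.3, Rian at 1.99 to 2.48 and Mirg at 0 to 1.65 CPM. The main transcript share then ran from 65.9 to 73.6% for Dlk1 and from 15.0 to 33.1% for Meg3. The unspliced last coding exon of Dlk1 ran from 68.9 to 74.9%, and the short form of Meg3 from 32.3 to 55.9%. The cause of these changes was not tested. A ratio needs both libraries, so none was left out of it. No paired analysis was possible because there is 1 group. Rian, Mirg and Dio3 were limited by depth.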

Other observations

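New genes, those that the authors' files place outside annotated genes or opposite to them, were found in the interval from Dlk1 to Dio3 in both libraries. Replicate 1 had 18 of them with 47 reads in all, and replicate 2 had 13 with 31 reads. Most had 1 to 3 reads, and 1 of those in replicate 1 covered a single base, chr12:109605705. In each library 10 overlapped a new gene of the other on the same strand. Those opposite to Meg3 numbered 4 with 24 reads in replicate 1 and 3 with 9 reads in replicate 2. The most read of them lay at chr12:109547493-109547641 in replicate 1 (15 reads), inside chr12:109547449-109548497 of replicate 2 (4 reads), in the intron between exons 5 and 6 of Meg3. The limits in replicate 1 are also those of an exon in a new spliced model of Meg3 itself, which had 1 read there. A new gene downstream of Meg3 and opposite in strand had 3 reads at chr12:109600821-109602917 in replicate 1 and 10 reads at chr12:109600821-109602331 in replicate 2. The ones opposite to Meg3 and this one are unspliced, and the strand of an unspliced read rests on how the library was oriented, which the sources used here do not give.

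A spliced new gene of 5 exons between Mirg and Dio3, chr12:110093131-110135323 on the plus strand, had 3 reads in replicate 2. It had none in replicate 1, whose depth was greater. The new genes described here were picked with their values known.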
